A study of Homo sapiens with 9 samples.

Results

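Of the 25886 gene symbols in the count table, 56 were higher with knockdown of the DNA methyltransferase DNMT1 and little raised with knockdown of DNMT3B in the human colorectal adenocarcinoma line HT29. They were selected on the measured values themselves, as CPM, the count of a gene divided by the total of its library and multiplied by 1000000. The mean with DNMT1 knockdown had to be at least 0.5 CPM and at least 75% above that of Control, and the mean with DNMT3B knockdown had to be less than 25% above that of Control. Every DNMT1 knockdown library also had to lie above every Control and every DNMT3B knockdown library. Of 15969 symbols with at least 0.5 CPM, 418 reached 75% above Control, 81 of those stayed under the DNMT3B limit, and 74 also had no overlap between libraries. A further 18 were dropped by symbol, as members of 15 gene families or noncoding classes or as 1 of 5 named genes (BST2, OAS1, IFI27, AQP3 and SMAD6), which left the 56.

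The study asked how the transcriptome of HT29 changes when DNMT1 or DNMT3B is depleted. Total RNA was sequenced after removal of rRNA in 9 libraries, of which 3 were Control, 3 had DNMT1 knocked down and 3 had DNMT3B knocked down. Both knockdowns were stable and made with lentiviruses, and the labels give selection with puromycin for all 9 libraries, Control included, at 1 µg/ml for 3 passages per the protocol. The labels do not give the age or passage of the cells, the Control construct, the number of hairpins or clones, or whether the libraries of a group came from separate cultures.

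DNMT1 is the maintenance methyltransferase, which copies CpG methylation onto the new strand after DNA replication. DNMT3B is a de novo enzyme, which methylates CpG sites that carry no mark. Many genes of germ cells, neurons and other lineages are methylated at their start in differentiated cells, and colorectal cancers gain methylation at many promoters that are rich in CpG. No methylation was measured here.

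The targeted transcripts were lower in the libraries named for them. DNMT1 (chr19:10133346-10194953) read 446, 467 and 455 CPM in Control, 249, 250 and 258 CPM with DNMT1 knockdown, and 492, 484 and 489 CPM with DNMT3B knockdown. The DNMT1 mean with its own knockdown was thus 55.3% of Control, so more than a trace of the transcript remained. DNMT3B (chr20:32762385-32809356) had 61.1 ± 1.09 CPM in Control, 64.3 ± 0.318 CPM with DNMT1 knockdown and 30.5 ± 2.73 CPM with DNMT3B knockdown (SD, n = 3). Total counts ran from 18772187 to 33666224 per library, at which 3 counts amount to 0.0891 to 0.16 CPM. Of 9 colon epithelial markers, 7 had at least 1 CPM in the mean of a group, while VIL1 and LGALS4 stayed below that. The 9 summed to 2400 to 2760 CPM over the libraries, mostly from the keratins KRT8, KRT18 and KRT19. These 3 had 1000, 475 and 505 CPM in Control, where CDX2 had 38.1 CPM and KRT20 only 1.03 CPM. Stromal markers summed to 21.3 to 36.4 CPM, mostly from COL1A1, with COL1A2 and DCN at 0 counts, leukocyte markers summed to 1.46 to 2.27 CPM, and endothelial markers to 3.72 to 6.39 CPM. In these bulk libraries a change in the number of cells that express a gene and a change in RNA per cell cannot be told apart.

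The rule did not use sequence, so the starts of the genes could be described separately. RefSeq (GRCh38.p14) gave a window from 250 bases before to 50 bases after a start for 42 of the 56. The following windows were chosen to show the range of CpG density, from the highest ratio among the 42 (MARCKS) through members with high levels (TIAM1, MYO10 and VCAN) to CpG-poor starts (CAPN6 and LRG1). In all 6 the table's start is the outer end of the gene. Capitals mark each CpG, and the sequences run 5′ to 3′ on the gene's strand.
MARCKS, chr6:113857095-113857394, plus strand: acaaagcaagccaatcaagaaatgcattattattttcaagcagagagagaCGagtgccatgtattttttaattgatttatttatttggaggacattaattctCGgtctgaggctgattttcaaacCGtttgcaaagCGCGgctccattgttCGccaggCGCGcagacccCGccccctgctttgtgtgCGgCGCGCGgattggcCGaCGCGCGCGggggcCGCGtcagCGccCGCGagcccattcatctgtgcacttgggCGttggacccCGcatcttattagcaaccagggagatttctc
TIAM1, chr21:31559038-31559337, minus strand: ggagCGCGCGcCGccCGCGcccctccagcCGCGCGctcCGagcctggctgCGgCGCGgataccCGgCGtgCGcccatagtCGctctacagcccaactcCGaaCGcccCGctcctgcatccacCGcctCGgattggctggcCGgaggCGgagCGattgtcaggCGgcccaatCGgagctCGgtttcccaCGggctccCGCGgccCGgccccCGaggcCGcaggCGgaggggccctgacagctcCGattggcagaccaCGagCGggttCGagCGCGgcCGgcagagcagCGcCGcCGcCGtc
MYO10, chr5:16936239-16936538, minus strand: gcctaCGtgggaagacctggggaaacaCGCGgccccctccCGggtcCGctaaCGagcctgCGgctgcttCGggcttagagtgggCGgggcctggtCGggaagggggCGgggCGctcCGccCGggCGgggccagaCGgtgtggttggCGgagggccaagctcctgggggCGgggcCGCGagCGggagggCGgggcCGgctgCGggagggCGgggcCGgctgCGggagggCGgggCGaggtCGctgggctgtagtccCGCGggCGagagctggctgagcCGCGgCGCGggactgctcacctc
VCAN, chr5:83471494-83471793, plus strand: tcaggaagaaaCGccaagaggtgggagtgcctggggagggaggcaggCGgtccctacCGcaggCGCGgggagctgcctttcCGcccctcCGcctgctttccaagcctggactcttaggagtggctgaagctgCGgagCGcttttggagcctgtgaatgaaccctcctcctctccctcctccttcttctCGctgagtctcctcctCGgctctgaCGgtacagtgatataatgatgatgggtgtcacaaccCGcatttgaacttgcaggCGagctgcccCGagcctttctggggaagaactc
CAPN6, chrX:111270434-111270733, minus strand: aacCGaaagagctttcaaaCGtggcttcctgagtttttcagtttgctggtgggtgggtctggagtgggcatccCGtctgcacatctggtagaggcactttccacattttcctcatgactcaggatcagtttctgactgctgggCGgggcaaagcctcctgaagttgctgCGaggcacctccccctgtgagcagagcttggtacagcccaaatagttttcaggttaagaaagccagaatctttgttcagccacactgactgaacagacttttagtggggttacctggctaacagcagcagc
LRG1, chr19:4539987-4540286, minus strand: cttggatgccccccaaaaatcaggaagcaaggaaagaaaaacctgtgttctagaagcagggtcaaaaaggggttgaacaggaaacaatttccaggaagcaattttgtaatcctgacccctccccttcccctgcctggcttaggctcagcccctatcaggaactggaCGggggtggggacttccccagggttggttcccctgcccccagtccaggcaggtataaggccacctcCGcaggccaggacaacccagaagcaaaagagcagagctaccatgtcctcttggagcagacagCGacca

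TIAM1 had 46 CpGs in its window and MYO10 had 37, whereas CAPN6 had 5 and LRG1 had 3. The ratio of observed CpG to the number expected from the C and G content was 1.19 in MARCKS, 1.07 in TIAM1, 0.862 in MYO10, 0.549 in VCAN, 0.25 in CAPN6 and 0.131 in LRG1. Genes of both kinds were thus members. Over the 42 windows the median ratio was 0.576, between 0.0926 for PKIB, an inhibitor of protein kinase A, and 1.19, and 20 (47.6%) reached 0.6, a usual limit for a CpG island. The same share was 72.8% over the 12869 windows of all tested genes, whose median was 0.803, and 58.1% over the 19032 windows of all symbols in the table. Of the 30 members with a window and at least 1 CPM with DNMT1 knockdown, 15 reached 0.6. GC content was close to that of the tested genes, with medians of 63.2% and 64.3%.

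The 138 genes at least 75% above Control in both knockdowns had a window for 90, of which 36.7% reached 0.6 (median 0.407). Exchanging the knockdowns in the rule gave 113 genes raised by DNMT3B knockdown only, of whose 76 windows 32.9% reached 0.6 (median 0.443). The members' share therefore lay between those of these 2 sets and that of the tested genes. These shares are descriptions with no test. The table's start was the outer end of the gene for 24 of the 42, so some windows may not hold the start used in HT29.

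**Figure D1:**
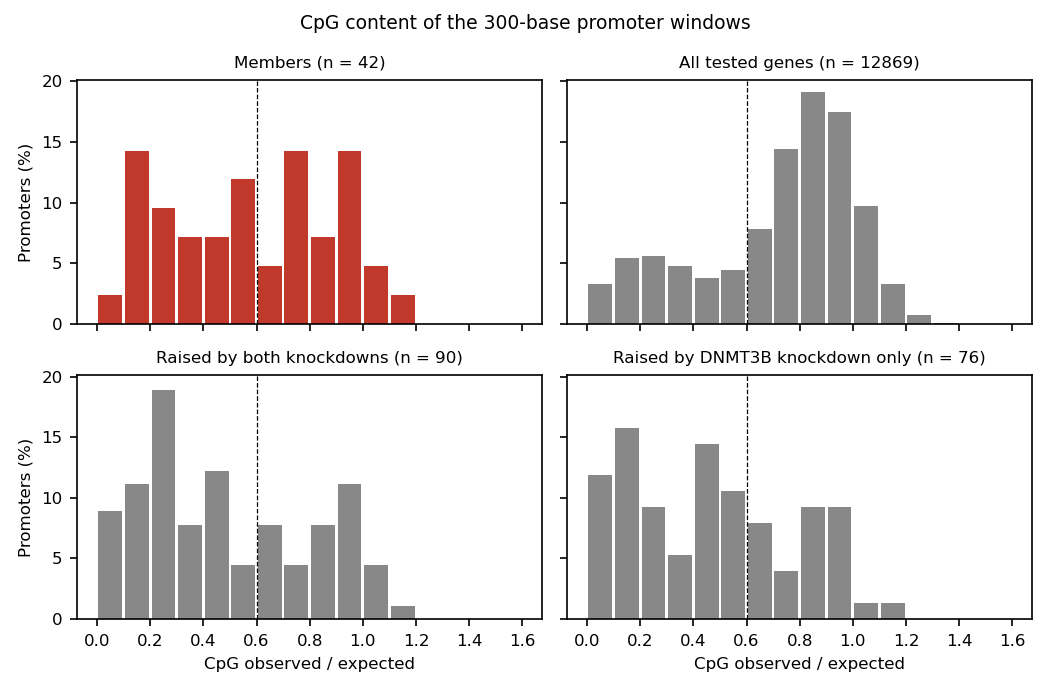
Share of 300-base promoter windows (y axis, percent) by ratio of observed to expected CpG (x axis, bins of 0.1) in 4 sets of genes, with the dashed line at 0.6. The 42 member windows spread over both sides of the line, 47.6% of them at or above it, against 72.8% of those of all tested genes.

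Short motifs were searched on both strands of the windows. The NRF1 motif GCGCATGC occurred in 2 of the 42 (4.76%; 4.79% of tested genes), in MAGI1 and VSNL1, and the CREB motif TGACGTCA in 2 (4.76%; 2.85%), in FRAT1 and DLG4. Both motifs hold a CpG, as does the ETS motif CCGGAAG. The ETS motif occurred in 4 (9.52%; 16.8%), in CELF5, ATP8B3, DLG4 and A1BG, and TATAAA in 3 (7.14%; 6.95%), in H3-4, GLI2 and MUC12. The letters searched for were therefore in few member windows.

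The fold of DNMT1 knockdown over Control ran from 1.752 to 3.06 over the 56 with a median of 1.94, and 35 were under 2-fold. Only 5 reached 2.5-fold, namely CCM2L (3.06), OPN3 (2.83), CAPN6 (2.62), DHRS3 (2.57) and A1BG (2.53). Control means lay below 1 CPM for 26 genes, from 1 to under 10 CPM for 19 and at 10 CPM or more for 11. The members thus ran from genes with few counts in Control to genes with many. Of the 56, 53 are protein coding in RefSeq, and GAPLINC, LRP8-DT and NFE4 are noncoding there.

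edgeR tested 16660 genes, all 56 members among them, and calls are at a Benjamini-Hochberg adjusted p under 0.05 over all of these. Against Control, DNMT1 knockdown raised 21.0% of tested genes by that call and lowered 20.8%. The calls covered 55 of the 56 members, all but C17orf114, a little known open reading frame. In the direct comparison with DNMT3B knockdown 24.3% of tested genes were called higher with DNMT1 knockdown, 53 members among them, and the exceptions were C17orf114, SMIM22 and LHFPL5. Every DNMT1 knockdown library lay above the other 6 libraries in 13.6% of tested genes. The rule fixed these contrasts for the members, so nothing follows from their counts. With no test, the median log2 fold change of DNMT1 knockdown was 0.94 over the members and -0.002 over all tested genes.

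Signalling proteins made up 7 members, grouped here by what their protein does after the members were known. DUSP4, a nuclear phosphatase that switches off ERK kinases (chr8:29333064-29350684), read 149, 149 and 147 CPM in Control, 280, 285 and 279 CPM with DNMT1 knockdown, and 166, 164 and 162 CPM with DNMT3B knockdown. The 3 groups were fully separate, with the DNMT3B knockdown libraries a little above Control. DUSP4 was 1.90 times Control with DNMT1 knockdown, with a 95% counting interval of 1.86 to 1.94, and 1.11 times Control with DNMT3B knockdown. Per kb of exon its level was 20.4 CPM in Control and 38.7 CPM with DNMT1 knockdown, the highest of the members in both groups.

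LPAR1, a receptor for lysophosphatidic acid (chr9:110873263-111038998), read 20.3, 19.8 and 18.7 CPM in Control, 40.6, 37.0 and 39.4 CPM with DNMT1 knockdown, and 20.6, 20.4 and 19.7 CPM with DNMT3B knockdown. Its Control and DNMT3B knockdown libraries overlapped, and its fold with DNMT1 knockdown was 1.99. PKIB (chr6:122471921-122726373) read 10.3, 10.0 and 9.32 CPM in Control, 20.9, 20 and 20.8 CPM with DNMT1 knockdown, and 9.02, 8.04 and 9.75 CPM with DNMT3B knockdown. PKIB too was at about the Control level with DNMT3B knockdown, at 0.905 times Control with overlapping libraries.

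SESN3, a sestrin that responds to stress and restrains the growth kinase complex mTORC1 (chr11:95165513-95232475), moved apart in both directions. It read 4.63, 4.94 and 3.86 CPM in Control, 11.2, 9.86 and 10.3 CPM with DNMT1 knockdown, and 3.75, 3.36 and 3.20 CPM with DNMT3B knockdown. All 3 DNMT3B knockdown libraries lay below Control, at 0.767 times its mean, and all DNMT1 knockdown libraries at 2.33 times its mean lay above. KNDC1, a guanine nucleotide exchange factor of neurons, was at 1.94 times Control, and FRAT1, which binds the kinase GSK3 in Wnt signalling, at 1.79 times. CCM2L, a paralogue of the vascular scaffold protein CCM2, had the largest fold of all, from 0.416, 0.483 and 0.543 CPM in Control to 1.24, 1.67 and 1.50 CPM, with 0.494, 0.586 and 0.501 CPM under DNMT3B knockdown. That fold rests on 44 counts in Control and 105 with DNMT1 knockdown, so its counting interval spanned 2.13 to 4.46.

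Cytoskeletal proteins gave 5 members, with folds of 1.752 to 2.62. TIAM1, an exchange factor that activates the GTPase RAC at the cell edge (chr21:31118418-31559087), read 84.1, 83.1 and 84.2 CPM in Control, 202, 195 and 191 CPM with DNMT1 knockdown, and 75.2, 73.5 and 78.4 CPM with DNMT3B knockdown. It was 2.34 times Control with DNMT1 knockdown and 0.903 times with DNMT3B knockdown, where every library lay below Control. The lowest DNMT1 knockdown library stood 2.27 times above the highest of the other libraries, the widest such gap among the members.

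MYO10, a myosin motor of filopodia (chr5:16661907-16936288), read 103, 104 and 98.0 CPM in Control, 180, 176 and 178 CPM with DNMT1 knockdown, and 114, 110 and 115 CPM with DNMT3B knockdown. Here the DNMT3B knockdown libraries all lay above Control. MARCKS, a membrane-bound protein that crosslinks actin and is a substrate of protein kinase C (chr6:113857345-113863475), showed the same order. Its values were 28.8, 29.9 and 30.1 CPM in Control, 55.7, 56.5 and 58.5 CPM with DNMT1 knockdown, and 37.0, 34.6 and 37.1 CPM with DNMT3B knockdown.

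CAPN6, a calpain without protease activity that binds microtubules (chrX:111245099-111270483), read 5.23, 4.31 and 5.20 CPM in Control, 12.7, 11.8 and 14.2 CPM with DNMT1 knockdown, and 6.10, 6.39 and 5.43 CPM with DNMT3B knockdown. Its DNMT3B knockdown libraries also lay just above Control, at 1.22 times the mean. LURAP1, an adaptor protein, was at 2.19 times Control on 51 Control counts. Of its exon bases 32.4% are shared with exons of POMGNT1, which had 62.0 CPM in Control and 57.6 CPM with DNMT1 knockdown, so its count is uncertain.

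**Figure D2:**
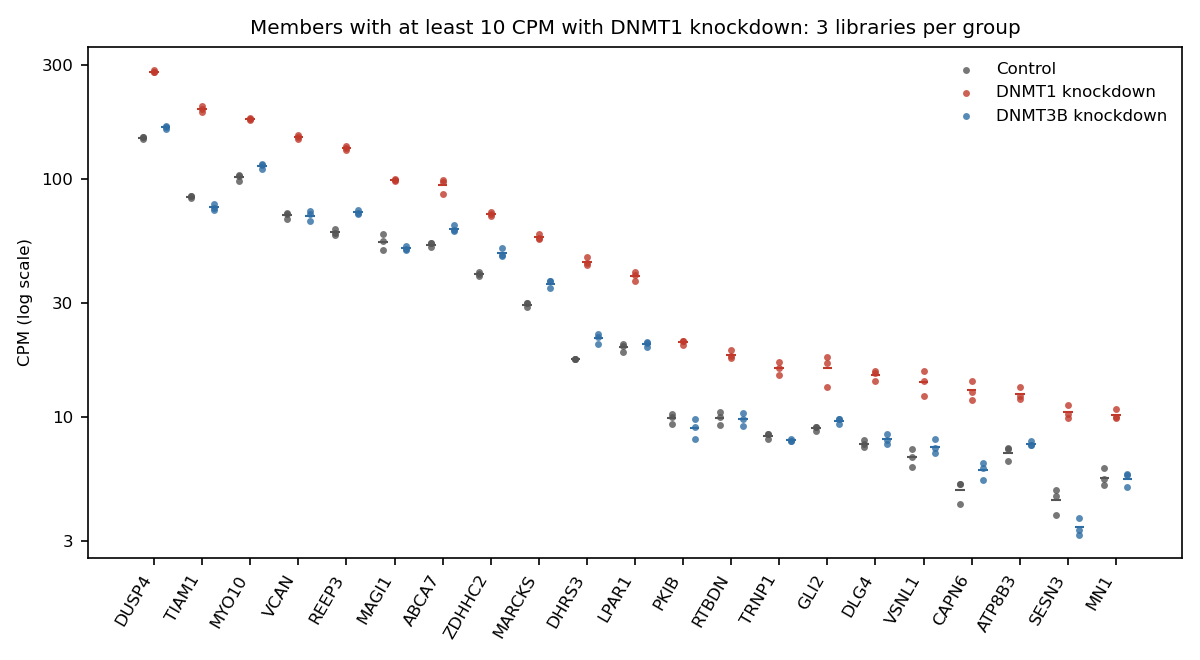
CPM on a log scale (y axis) in each of 9 libraries for the 21 members whose mean with DNMT1 knockdown reached 10 CPM (x axis); points are libraries, 3 per group, and lines are group means. By the rule every DNMT1 knockdown point lies above the others, and the DNMT3B knockdown points of MARCKS, DHRS3 and ZDHHC2 lie between them and Control while those of TIAM1 and SESN3 lie below Control.

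Matrix, junction, surface and secreted proteins were the largest group, with 11 members at 1.81 to 2.53 times Control. VCAN, the large matrix proteoglycan versican (chr5:83471744-83582302), read 72.0, 70.9 and 67.6 CPM in Control, 150, 147 and 153 CPM with DNMT1 knockdown, and 72.8, 66.1 and 70.9 CPM with DNMT3B knockdown. Its fold was 2.14 with DNMT1 knockdown and 0.996 with DNMT3B knockdown, and the latter libraries overlapped Control. MAGI1, a scaffold of tight junctions (chr3:65353526-66038918), read 50.2, 58.3 and 54.8 CPM in Control, 98.3, 99.5 and 97.8 CPM with DNMT1 knockdown, and 52.1, 50.7 and 50.3 CPM with DNMT3B knockdown. In MAGI1 too the DNMT3B knockdown libraries overlapped Control.

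The other 9 of that group had 27 to 178 Control counts each. IFITM10, of the interferon-induced transmembrane family by sequence, was at 1.84 times Control, and MUC12, a membrane mucin of the colon and the 1 member on a fixed list of 58 colon differentiation genes, at 1.86 times. MUC12 read 0.861, 1.19 and 0.766 CPM in Control and 1.41, 1.49 and 2.33 CPM with DNMT1 knockdown, so the third DNMT1 knockdown library carried much of its difference. KIRREL2, an adhesion protein of the immunoglobulin family, and CMTM2, of the chemokine-like MARVEL family, were at 1.82 and 1.83 times Control. HGFAC, the protease that activates hepatocyte growth factor, was 0.625 ± 0.102 CPM in Control and 1.26 ± 0.424 CPM with DNMT1 knockdown (SD, n = 3), and its call ended without the second DNMT1 knockdown library, the highest of its group, at an edgeR adjusted p of 0.0542.

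KLK11, a secreted kallikrein protease, was at 2.12 times Control, and CD7, a surface protein of T cells, at 2.49 times. CD7 had 27 counts in the 3 Control libraries and 54 in the 3 DNMT1 knockdown libraries. LRG1, a secreted glycoprotein of acute inflammation, had 0.297, 0.334 and 0.383 CPM in Control, 0.786, 0.854 and 0.833 CPM with DNMT1 knockdown, and 0.453, 0.213 and 0.270 CPM with DNMT3B knockdown. A1BG, a plasma protein of the immunoglobulin family, shares 19.5% of its exon bases with its antisense transcript, which was at 3.41 times Control on 52 counts over all libraries, and the deposited counts do not state the use of strand.

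Enzymes and membrane proteins of lipid, retinoid and amino acid metabolism gave 8 members. REEP3, which shapes the endoplasmic reticulum (chr10:63521401-63625128), read 61.4, 58.1 and 59.0 CPM in Control, 137, 132 and 134 CPM with DNMT1 knockdown, and 71.6, 71.2 and 73.7 CPM with DNMT3B knockdown. DHRS3, a retinal reductase that limits retinoic acid (chr1:12567910-12618210), read 17.4 CPM in each Control library, 44.3, 46.7 and 43.3 CPM with DNMT1 knockdown, and 22.2, 21.7 and 20.3 CPM with DNMT3B knockdown. In both genes the 3 groups did not overlap, and the DNMT3B knockdown libraries stood between the others.

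ABCA7, a lipid transporter (chr19:1040107-1065572), was 52.8 ± 1.29 CPM in Control, 93.7 ± 6.86 CPM with DNMT1 knockdown and 61.6 ± 1.81 CPM with DNMT3B knockdown (SD, n = 3). ZDHHC2, which attaches palmitate to proteins (chr8:17156482-17224799), had 39.7 ± 0.799, 71.2 ± 1.30 and 48.6 ± 2.00 CPM in the same order. ATP8B3, a phospholipid flippase of testis, was at 1.76 times Control, SARDH, which breaks down sarcosine, at 1.98 times, HPD, of tyrosine breakdown, at 1.93 times, and SDR16C5, a retinol dehydrogenase, at 2.34 times. All 8 had a DNMT3B knockdown mean above Control, at 1.09 to 1.23 times, and in 7 of them, all but HPD, every DNMT3B knockdown library lay above every Control library. Such a separation was seen in 27.0% of tested genes and in 23.2% of all members. DHRS3 (1.23) lay close to the limit that the rule set for DNMT3B knockdown, while ATP8B3 (1.09) and HPD (1.1) lay further below it. The makeup of the group was chosen after the members were known, so nothing follows from its share.

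Regulators of transcription in development gave 4. GLI2, the activator of Hedgehog signalling (chr2:120735868-120992653), read 9.09, 8.73 and 9.03 CPM in Control, 13.4, 17.9 and 16.8 CPM with DNMT1 knockdown, and 9.81, 9.75 and 9.32 CPM with DNMT3B knockdown. The first DNMT1 knockdown library was the lowest of its group but still above the 6 other libraries. TRNP1, a nuclear protein of cortical progenitor cells (chr1:26993692-27000886), read 8.47, 8.06 and 8.49 CPM in Control, 15, 16.1 and 16.9 CPM with DNMT1 knockdown, and 7.91, 7.94 and 8.09 CPM with DNMT3B knockdown. MN1, a transcriptional coregulator, was at 1.83 times Control, and NFE4, a regulator of globin genes, at 2.31 times on 24 Control counts.

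Neural and sensory genes gave 7. RTBDN, a riboflavin-binding protein of the retina (chr19:12825482-12835428), read 10.5, 9.99 and 9.23 CPM in Control, 17.6, 18.0 and 19 CPM with DNMT1 knockdown, and 9.76, 9.11 and 10.4 CPM with DNMT3B knockdown. DLG4, the scaffold PSD-95 of excitatory synapses (chr17:7187187-7220050), read 7.69, 7.47 and 7.98 CPM in Control, 14.2, 15.2 and 15.5 CPM with DNMT1 knockdown, and 8.49, 7.99 and 7.71 CPM with DNMT3B knockdown. VSNL1, a neuronal calcium sensor (chr2:17539972-17657018), read 6.18, 7.35 and 6.80 CPM in Control, 12.2, 14.2 and 15.6 CPM with DNMT1 knockdown, and 8.03, 7.40 and 7.05 CPM with DNMT3B knockdown. In all 3 the DNMT3B knockdown libraries overlapped Control.

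CELF5, an RNA-binding protein that regulates splicing, was at 1.96 times Control with DNMT1 knockdown and at 1.24 times with DNMT3B knockdown, the highest value that the rule admitted. SNAP25, a SNARE protein of synaptic vesicle fusion, was at 1.78 times on 78 Control counts. OPN3, an opsin (chr1:241593124-241640369), had 0.297, 0.334 and 0.255 CPM in Control, 0.786, 0.683 and 1.04 CPM with DNMT1 knockdown, and 0.206, 0.160 and 0.193 CPM with DNMT3B knockdown. OPN3 thus stood above Control in one knockdown and below it in the other, without overlap, but 45.5% of its exon bases are shared with KMO and 10.0% with CHML. LHFPL5, a protein of the hair cell transduction channel, had 32 Control counts, and its call ended in 4 of the 9 fits that left out 1 library, at edgeR adjusted p values up to 0.136. It shares 9.72% of its exon bases with SRPK1, which had 197 CPM in Control, so its count is uncertain.

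Genes of germ cells and cilia gave 7, of which 3 had under 1 CPM with DNMT1 knockdown. CCDC110, a cancer-testis antigen, was at 1.76 times Control, KCTD19, a meiosis gene, at 1.79 times, ARMC12, of the sperm mitochondrial sheath, at 1.94 times, and H3-4, a testis histone H3, at 1.88 times. Histone genes are near copies of each other, so reads of H3-4 may have been split. RAB34, a GTPase of cilium formation, and RSPH14, a radial spoke protein of cilia, had 35 and 21 Control counts, and 11.2% of the exon bases of RSPH14 are shared with GNAZ, which had 17.4 CPM in Control.

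MAGEA12, a cancer-testis antigen of the X chromosome, was the 1 member on the germline list and read 0.475, 0.446 and 0.319 CPM in Control, 0.662, 0.811 and 0.833 CPM with DNMT1 knockdown, and 0.453, 0.373 and 0.424 CPM with DNMT3B knockdown. Its call ended without the third Control library, at an edgeR adjusted p of 0.0676, and without the third DNMT1 knockdown library, at 0.0522. MAGEA genes are near-identical, which makes its count uncertain too. Without the first Control or the first DNMT1 knockdown library the call of RAB34 ended as well, at edgeR adjusted p values of 0.0579 and 0.0533.

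In innate immunity, PARP10, an interferon-induced ADP-ribosyltransferase, read 1.22, 1.37 and 1.40 CPM in Control, 2.65, 2.26 and 3.00 CPM with DNMT1 knockdown, and 1.77, 1.54 and 1.46 CPM with DNMT3B knockdown. PARP10 shares 5.37% of its exon bases with GRINA, so its count is uncertain. GRINA had 160 CPM in Control and 200 CPM with DNMT1 knockdown. NLRP6, an inflammasome sensor of the gut epithelium, read 0.238, 0.260 and 0.287 CPM in Control, 0.662, 0.470 and 0.458 CPM with DNMT1 knockdown, and 0.124, 0.160 and 0.116 CPM with DNMT3B knockdown. It had the lowest DNMT3B knockdown value of all members, 0.508 times Control, on 24 Control counts, and its call with DNMT1 knockdown ended without the first Control library, at an edgeR adjusted p of 0.0624, and without the first DNMT1 knockdown library, at 0.118. BST2, OAS1 and IFI27, the interferon-induced genes that the rule dropped by name, met its numeric limits with folds of 4.65, 3.43 and 3.04.

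The last 5 are noncoding or little known, at 1.80 to 2.19 times Control, namely FAM189A1, SMIM22, GAPLINC, LRP8-DT and C17orf114. FAM189A1, a membrane protein, was the only one of them with at least 1 CPM with DNMT1 knockdown, at 2.01 CPM against 0.919 CPM in Control. The remaining 4 had 27 to 34 Control counts. The calls of SMIM22, a small membrane peptide, of GAPLINC, a long noncoding RNA, and of LRP8-DT each ended in several fits that left out 1 library, at edgeR adjusted p values up to 0.231, 0.152 and 0.251.

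**Figure D3:**
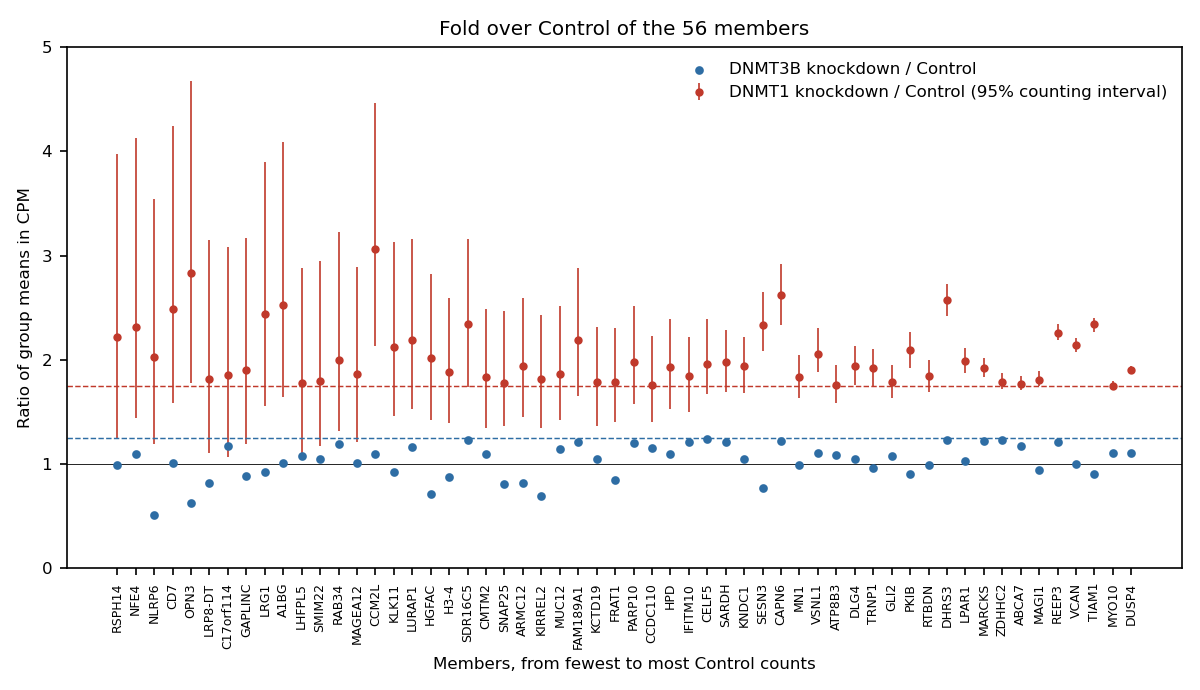
Ratio of group means in CPM (y axis) for the 56 members, ordered from fewest to most Control counts (x axis). Red points are DNMT1 knockdown over Control with exact 95% counting intervals, blue points DNMT3B knockdown over Control, and the dashed lines the rule's limits for the 2 ratios; the intervals include the red limit in 41 genes, and the widest belong to the genes with few counts at the left.

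Counting error alone left many members near the limit. The exact 95% interval of the fold from the summed counts lay above the 75% limit for 15 members and included it for 41. It lay above 1 for all 56, but the rule chose them on these same counts, so nothing follows from that. In 13 members a Control library had under 10 counts, and none had a library with 0 counts. Just inside the fold limit were MYO10 (1.752), CCDC110 (1.757) and ATP8B3 (1.764), and just outside LONRF2 (1.745), PIWIL4 (1.745) and MKX (1.74). Just under the DNMT3B limit were CELF5 (1.238), DHRS3 (1.229) and SDR16C5 (1.225), and just over it MEX3A (1.257), RHOU (1.269) and ROR1 (1.283). At the level limit RSPH14 (0.503 CPM), NLRP6 (0.530 CPM) and C17orf114 (0.530 CPM) were inside, and ATP5MGL (0.461 CPM), ITIH3 (0.433 CPM) and PGAM1P5 (0.404 CPM) outside. No natural gap therefore separated the members from other genes.

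Libraries that took no part in the choice gave the same measure free of selection by their own value. The libraries they were compared with had been used in the choice, so the ratios and separations below still carry that selection. The rule was applied to 8 libraries at a time and the chosen genes were read in the library left out. With a DNMT1 knockdown library left out, 62, 63 and 60 genes were chosen. In the library left out, 53 (85.5%), 53 (84.1%) and 55 (91.7%) of them lay above every Control and DNMT3B knockdown library, and 37, 38 and 39 reached 75% above the Control mean. The median fold was 1.99, 1.93 and 1.95 in the libraries used and 1.81, 1.87 and 1.88 in the one left out, so it was lower in each case but stayed well above 1. Left-out Control libraries lay below all DNMT1 knockdown libraries for 53 of 53, 53 of 55 and 47 of 47 chosen genes, and the DNMT1 knockdown mean was at least 75% above the left-out library for 41, 38 and 35 of them. Left-out DNMT3B knockdown libraries lay below all DNMT1 knockdown libraries for 55 of 57, 54 of 55 and 54 of 55. Of these genes, 44, 48 and 42 were under the 25% limit on DNMT3B knockdown in the library left out. Their median ratio to Control was 1.03, 1.07 and 1.07 in the DNMT3B knockdown libraries used and 1.12, 1.03 and 1.04 in the one left out. These are counts with no test, and the libraries of a group may share a culture.

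The limit on DNMT3B knockdown admitted genes that differed from Control there. With DNMT3B knockdown the members ran from 0.508 to 1.24 times Control with a median of 1.05, and 15 lay 15% or more above Control. Every DNMT3B knockdown library was above every Control library in 13 members (23.2%), which compares with 27.0% of tested genes. Every such library was below Control in 5 members (8.93%), against 26.9% of tested genes, and in 38 the libraries overlapped. The rule removed genes raised further by DNMT3B knockdown and also used the Control values, so these shares are set in part by it. Control means lay below 1 CPM in 26 of the 56 members, and whether low counts bear on the shares was not tested.

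edgeR called 23.1% of tested genes higher and 24.6% lower with DNMT3B knockdown. Among the members 7 were called higher, with log2 fold changes of 0.29 for MARCKS, ZDHHC2 and DHRS3, 0.27 for REEP3, 0.22 for ABCA7, 0.15 for MYO10 and 0.14 for DUSP4. All 7 had Control means above 10 CPM, where small differences can be called. TIAM1 and SESN3 were called lower, at log2 fold changes of -0.15 and -0.39. In OPN3, NLRP6 and HGFAC every DNMT3B knockdown library was also below Control, on few counts and without a call. Both knockdowns were set against the same 3 Control libraries, so their values for a gene share that error.

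**Figure D4:**
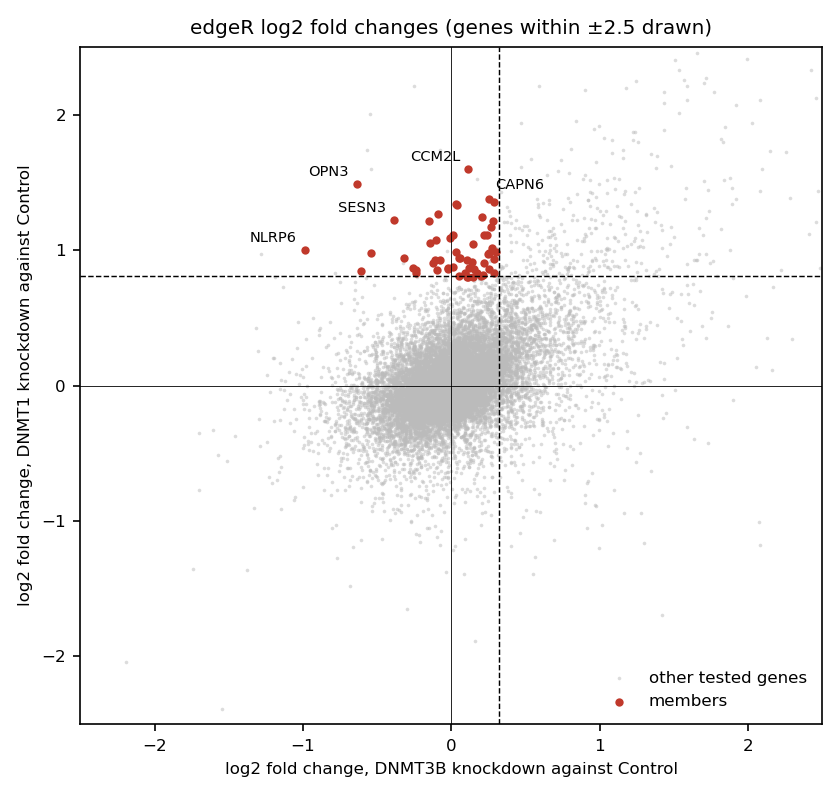
edgeR log2 fold change of DNMT1 knockdown (y axis) against that of DNMT3B knockdown (x axis), both over the same Control libraries, for tested genes within 2.5 on both axes; members are red and other genes grey. Dashed lines mark the rule's limits of 75% and 25% above Control, and the members fill the upper part to the left of the vertical line because the rule put them there, with NLRP6, OPN3 and KIRREL2 furthest to the left.

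Of 11 fixed gene lists, members stood on 5, and the members were 56 of the 16660 tested genes. Shares of members on the lists were not tested. SNAP25, DLG4 and CELF5 were on the neural and synaptic list (62 tested genes) and MAGEA12 on the germline list (23). PARP10 was on the interferon list (70), MUC12 on the colon list (21) and KLK11 on the epithelial barrier list (33). No member was on the lists of DNA methylation enzymes (24 tested genes), imprinted genes (33), p53 targets (38), muscle genes (26) or cytokines (51). The same held for genes known for promoter methylation in colorectal cancer (30). With 56 members among 16660 tested genes, few or none would be on lists of this size at that share, so nothing follows from their absence. The neural list had 62 tested genes, of which edgeR called 28 higher and 4 lower with DNMT1 knockdown (median log2 fold change 0.13) and 24 higher and 10 lower with DNMT3B knockdown (0.15). Most neural genes called higher with DNMT1 knockdown were therefore no members. On the interferon list 25 of 70 tested genes were called higher and 3 lower with DNMT1 knockdown, against 21 and 19 with DNMT3B knockdown. Over all tested genes 21.0% were called higher and 20.8% lower with DNMT1 knockdown, and 23.1% and 24.6% with DNMT3B knockdown. The lists differed, with 14 higher and 3 lower of 33 on the epithelial barrier list and 8 higher and 15 lower of 38 p53 targets with DNMT1 knockdown. None of these list counts was tested.

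The members lay on 21 chromosomes. Chromosome 19, which is rich in genes, held 8 (14.3%; 6.69% of tested genes), namely ABCA7, ATP8B3, CELF5, LRG1, RTBDN, KIRREL2, KLK11 and A1BG. ARMC12 (chr6:35731524-35749079) and LHFPL5 (chr6:35805352-35824070) were the 1 pair of members within 100 kb, with 56273 bases between them, and no more pairs lay within 500 kb. The members that the rule kept were thus spread over the genome. Genes dropped by symbol were not counted in these pairs, so the lack of clusters is in part set by the rule. Among those dropped, LOC285847 (chr6:35726762-35736947), at 1.79 times Control with DNMT1 knockdown, overlaps ARMC12. TIAM1-AS1, at 1.88 times Control, lies 146 bases from TIAM1. Both met every numeric limit.

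The nearest tested gene on each side without overlap with the member gave 110 neighbours that are no members. Genes that overlap a member, such as ACADVL with DLG4 and POMGNT1 with LURAP1, were passed over. The rule was applied to the neighbours as well and left them out, TIAM1-AS1 by symbol only, so their values are not independent of it. Of the 110, edgeR called 35 (31.8%) higher and 18 (16.4%) lower with DNMT1 knockdown. The shares over all tested genes were 21.0% and 20.8%, and the median log2 fold change of the neighbours was 0.085. The difference in shares was not tested. WDR64, a WD repeat protein that lies 11912 bases from OPN3, was 0.205 CPM in Control, 1.49 CPM with DNMT1 knockdown and 0.656 CPM with DNMT3B knockdown. SECTM1, which encodes a ligand of CD7 and lies 3416 bases from it, was 5.78, 14.4 and 8.70 CPM in the same order. Both were thus higher in each knockdown, with log2 fold changes for DNMT3B knockdown of 1.63 and 0.59, and both were called there too.

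KLK10, the kallikrein gene 2139 bases from KLK11, followed the members' pattern, at 8.35 CPM in Control, 14.2 CPM with DNMT1 knockdown and 7.78 CPM with DNMT3B knockdown. TIAM1-AS1, an antisense transcript that lies 146 bases from TIAM1 and was dropped by its symbol, was 1.23, 2.30 and 1.15 CPM in that order. MUC3A, the mucin gene 1218 bases from MUC12, was 17.9, 27.7 and 24.9 CPM, and CSAG1, a cancer-testis gene 36 bases from MAGEA12, was 0.188, 0.516 and 0.372 CPM. The use of strand in counting is not given in the sources used here, so the counts of genes this close to each other are uncertain. MAGEA2, 12194 bases away on the other side of MAGEA12, was called lower with DNMT1 knockdown. It had 1.3 CPM in Control, 0.796 CPM with DNMT1 knockdown and 0.563 CPM with DNMT3B knockdown. The neighbours named in the text are thus mostly raised ones, while 18 of the 110 were called lower.

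**Figure D5:**
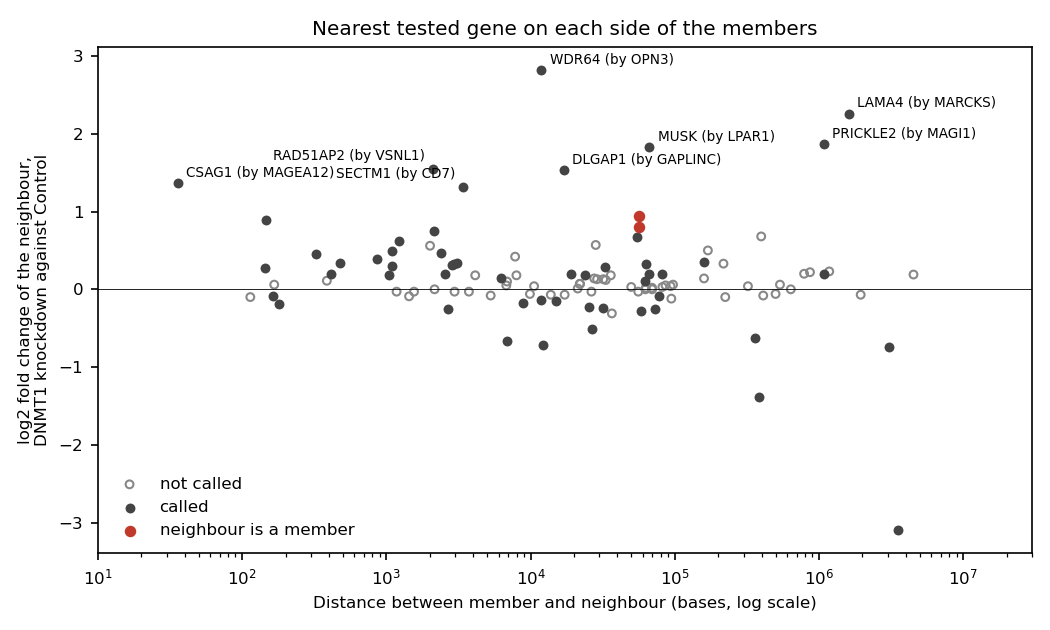
edgeR log2 fold change of DNMT1 knockdown over Control (y axis) for the nearest tested gene without overlap on each side of the members, by the distance between the 2 genes in bases (x axis, log scale). Filled points were called and open ones not; WDR64 beside OPN3 stands highest at 2.82, DLC1, 3551862 bases from ZDHHC2, lowest at -3.10, and the red points are ARMC12 and LHFPL5, which neighbour each other.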

How the data were processed

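Raw counts of reads per gene symbol, as the authors deposited them, cover the 9 libraries in 1 table. The tools STAR, featureCounts and DESeq2 and the build GRCh38 (hg38) are named per the submitters' processing notes. Their versions, the annotation and the use of strand: not given in the sources used here. Overlapping and near-identical genes are therefore uncertain. Groups came from the sample labels.

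The members and lists were chosen with earlier results of these data known, by values of all 3 contrasts, so their values are descriptions. Role groups were made after the members were known. Counts were fitted in R 4.3.3 with edgeR 4.0.16 (filterByExpr, TMM, quasi-likelihood over all 9 libraries, Benjamini-Hochberg over 16660 genes), after a test on simulated data. The p-values measure only how far these libraries spread, and that spread may be technical. Alternatives were DESeq2 1.42.0, limma-voom (limma 3.58.1), other scaling and filters, a replicate block, fits of only the groups compared, other limits of the rule and leaving out each library. Folds in CPM are ratios of group means, with exact 95% intervals from summed counts. Intervals and the floor of 3 counts cover counting error only.

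Named are the 15 members with the highest level, the 15 with the largest fold at 2 CPM or more, list members, members within 100 kb of each other, 3 genes each side of each limit, and others to describe a group. Members under 1 CPM outside that rule, and neighbours, were chosen after their values were seen. The rule for start sites was applied as the gap between genes. Coordinates, biotypes and windows are from RefSeq (GRCh38.p14), in which 25574 of the 25886 symbols were found, and exon lengths and overlaps from GENCODE release 29.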

Additional observations from a re-analysis of the deposited data

How the results depend on the processing

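The number of members depended on the limits of the rule. With 1.5 times Control as the fold limit there were 153, with 2 times 21, with at least 2 CPM in place of 0.5 CPM 30, and with DNMT3B knockdown under 1.1 times Control 33. With at least 1 CPM there were 42, with DNMT3B knockdown under 1.5 times Control 84, and with no symbol dropped 74. Scaling by TMM or by DESeq2 size factors gave 54 each, of which 53 were among the 56, and leaving out 1 library gave 47 to 63, of which 41 to 53 were.

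Calls among members kept their side across the settings run, apart from genes with few counts. The 55 called higher with DNMT1 knockdown against Control became 48 with DESeq2, 56 with limma-voom, 53 with no low-count filter, 40 of the 40 tested at 1 CPM in 3 libraries, and 50 to 55 leaving out 1 library, where 8 lost their call at least once. The 53 called higher in the direct comparison with DNMT3B knockdown became 45 with DESeq2, 52 with limma-voom and 46 to 53 leaving out 1 library. Members called lower with DNMT3B knockdown numbered 1 to 3 leaving out 1 library, with 1 only without the third DNMT3B knockdown library, and those called higher 7 or 8. Of 544 single-gene values under alternatives, 19 lost their call, 2 gained one and none turned sign. For the fits that left out 1 library, these hold only the lowest and the highest value of each gene. More calls than these 19 were therefore lost over the single fits.

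The replicate numbers gave no clear sign of paired libraries. Deviations of same-numbered libraries correlated at -0.061 to 0.042, and those of libraries with different numbers at -0.039 to 0.06. The third Control and the third DNMT3B knockdown library did correlate best with each other, at only 0.032. With the replicate block 53 members were called higher against Control, 7 higher and 2 lower with DNMT3B knockdown, and 52 higher in the direct comparison, against 53 without it. Depth limits the members below 1 CPM most.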

Other observations

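Genes that met every numeric limit but were dropped by symbol included some with large folds. BST2, S100A4, OAS1 and AQP3, at 4.65, 4.08, 3.43 and 3.35 times Control, exceeded the highest fold of the members, 3.06 for CCM2L. ADAM19, a membrane metalloprotease at 2.90 times Control, read 77.9, 79.2 and 77.5 CPM in Control, 222, 229 and 229 CPM with DNMT1 knockdown, and 91.5, 87.0 and 87.7 CPM with DNMT3B knockdown. S100A4, a calcium-binding protein linked to cell motility, read 4.57, 3.57 and 4.72 CPM, then 18.7, 17 and 16.7 CPM, then 2.22, 3.46 and 3.31 CPM in the same order. AQP3, a water and glycerol channel, read 4.54, 5.09 and 4.37 CPM in Control, 14.2, 16.6 and 16 CPM with DNMT1 knockdown, and 3.09, 3.20 and 3.16 CPM with DNMT3B knockdown. The median fold of 1.94 over the 56 therefore describes what was left after these were removed. SMAD6, an inhibitor of BMP signalling, was 12.4 CPM in Control, 22.1 CPM with DNMT1 knockdown and 7.21 CPM with DNMT3B knockdown, so it too stood on opposite sides of Control.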
